A study of Mus musculus with 12 samples.

Results

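The genes described here are 10 genes of MHC class I antigen presentation: Nlrc5, B2m, H2-K1, H2-D1, Tap1, Tap2, Tapbp, Psmb8, Psmb9 and Psmb10. They were chosen by symbol from the 31017 genes of each count table, and all 10 passed the filter on low counts that left 13763 genes to test. RNA was taken from 4T1, a mouse mammary carcinoma line of BALB/c origin, in 12 libraries of 6 groups with 2 libraries each. The control groups were pools of clones that had received control sgRNA. The other groups were clone 1 and clone 2, each a single clone selected after nucleofection of Cas9 with sgRNA against Etv4, which encodes an ETS transcription factor. A difference of a clone from control thus joins the Etv4 edit with any other trait of that clone, and these cannot be told apart. Cells of all 3 kinds were cultured both on plastic, here 2D, and inside gels of collagen I, here 3D.

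MHC class I molecules show peptides from inside the cell to CD8+ T cells. Proteasomes cut proteins into peptides, the TAP transporter carries the peptides into the endoplasmic reticulum, tapasin helps to load them, and a heavy chain bound to beta-2-microglobulin carries them to the cell surface. NLRC5 is a transactivator that joins factors bound at the X and Y boxes of class I promoters, and interferons raise the whole set, including the inducible proteasome subunits.

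Library totals, in units of 1000000 counts, were 12.3 to 18.7 in 2D and 26.5 to 33.2 in 3D. Etv4 stood at 78.1 and 76.0 CPM (counts in 1000000, with library sizes scaled by TMM) in control 2D and at 46.0 to 49.8 in both clones there. Control libraries had 94.7 and 99.4 CPM in 3D, clone 1 had 69.9 and 69.1 and clone 2 had 86.6 and 91.5, and the clone 2 difference did not pass the threshold (log2 fold change -0.12 ± 0.06 SE, adjusted p = 0.12). Where the guides cut is not given in the sources used here, so the RNA level is only a partial check of the knockout. Etv4 lies on chromosome 11, and any shift of that region in the clones is not given here. Of genes named below on the same chromosome, Psme3 had 2D means of 177, 120 and 143 CPM in control, clone 1 and clone 2. Those of Krt19 went the other way, at 53, 93.7 and 83.6 CPM. Epithelial markers, 6 genes, summed to 2839 to 4720 CPM. The 11 leukocyte markers summed to 1.75 to 11.6 CPM, with 5 to 7 of them at 0 in a group and Laptm5, Adgre1 and Itgam at 0 in all libraries. Fibroblast markers, 7 genes, summed to 4.11 to 7.39 CPM in 2D and 19.9 to 23.8 in 3D, and 6 endothelial markers summed to 3.5 to 14.9. Most of each sum came from 1 gene. Pdgfra made up most of the fibroblast sum, with group means of 3.67 to 6.66 CPM in 2D and 19.9 to 23 in 3D. Egfl7 made up most of the endothelial sum (3.29 to 13.4 CPM) and Cd68 most of the leukocyte sum (2.06 to 8.97 CPM).

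The promoters of the light chain and of both classical heavy chains carried the same spaced pair of box cores. RefSeq windows (GRCm38.p6) of 250 bases before to 50 after a transcription start were given for 8 of the 10 genes, with none for Nlrc5 and Tap2. In the 3 stretches below, each read 5′ to 3′ toward the gene, the capitals mark TGACG, the core of the X2 box, and ATTGG, the reverse complement of the Y box core CCAAT. They are shown because the cores have the same spacing in all 3. Whether NLRC5 acts at them in these cells was not tested.
B2m: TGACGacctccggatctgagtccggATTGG
H2-K1: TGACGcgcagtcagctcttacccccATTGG
H2-D1: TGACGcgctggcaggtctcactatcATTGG

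The B2m stretch is at chr2:122147609-122147638 on the plus strand, 78 to 49 bases before the start. That of H2-K1 is at chr17:34000359-34000388 on the minus strand, 41 to 12 bases before it, and that of H2-D1 is at chr17:35262993-35263022 on the plus strand, 101 to 72 bases before it. In GENCODE M21 the H2-D1 gene model begins farther upstream, at 35262730, so this stretch lies inside the annotated gene. All 3 have 20 bases between the cores, and 31 of 32851 windows of 300 bases (0.0944%) held this arrangement. Beside H2-M3, they include windows of genes outside class I presentation, such as Calu, Hnrnpf and Per1. H2-M3 had mean levels of 16.2, 13.9 and 10.3 CPM in control, clone 1 and clone 2 in 2D. In 3D its means were 6.32, 6.64 and 6.32 CPM in the same order. The spacing was noticed in the windows of B2m, H2-K1 and H2-D1 and then counted, so it is a description. Each core alone is common: TGACG on either strand was in 20.8% of windows and CCAAT in 37.4%.

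The longer stretches of B2m and H2-K1 show where the cores lie against other searched motifs. Capitals mark the X2 and Y cores as above, AANNGAAA (a core of interferon regulatory factor sites, in 23.9% of windows) and GGGNNTTCC (a core of NF-kB sites, in 5.82%), on either strand, with no overlap between matches. B2m is printed from chr2:122147437-122147685, and H2-K1 from chr17:34000348-34000597, minus strand.
B2m: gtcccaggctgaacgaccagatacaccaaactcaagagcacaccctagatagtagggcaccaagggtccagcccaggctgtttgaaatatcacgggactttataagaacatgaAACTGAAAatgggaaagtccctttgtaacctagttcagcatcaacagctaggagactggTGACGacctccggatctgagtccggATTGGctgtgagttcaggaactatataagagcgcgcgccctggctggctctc
H2-K1: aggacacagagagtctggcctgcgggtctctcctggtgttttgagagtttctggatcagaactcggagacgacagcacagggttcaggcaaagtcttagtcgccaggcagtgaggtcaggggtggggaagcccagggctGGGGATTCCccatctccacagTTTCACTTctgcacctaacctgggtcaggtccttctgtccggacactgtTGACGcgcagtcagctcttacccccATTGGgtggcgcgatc

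The remaining windows held other matches. Tap1 and Psmb9 start back to back on opposite strands, and their windows overlap. Each held 1 TGACG and 1 CCAAT match without the 20-base spacing. By position these are the same sites, read from opposite strands. Tapbp held 2 CCAAT matches, Psmb8 held TTCCCAGAA, a match to the STAT pattern TTCNNNGAA (in 8.3% of windows), 97 to 89 bases before its start, and Psmb10 held none of the searched motifs. CNGGAAGT, a core of PEA3 group ETS sites (in 9.53% of windows), was in none of the 8 windows, which says only that these letters are not there. The reference is C57BL/6, whose H2 haplotype differs from that of BALB/c, and its effect on the counts of H2 genes was not tested.

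Nlrc5 (ENSMUSG00000074151.13, chr8:94434356-94527272, mm10) had the largest log2 change of the 10 genes in clone 2 in both formats. In 2D the control libraries had 22.1 and 22.3 CPM, those of clone 1 had 3.49 and 3.78, and those of clone 2 had 1.46 and 1.07. In 3D the control libraries had 27.6 and 27.3 CPM, those of clone 1 had 5.77 and 7.31, and those of clone 2 had 10.2 and 10.4. The order of clones thus turned over: clone 2 was the lowest group in 2D and above clone 1 in 3D, and no 2 groups overlapped. The 2D libraries of clone 2 rest on 27 and 15 counts.

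By edgeR's quasi-likelihood test, Nlrc5 fell in clone 1 by 2.61 ± 0.17 on the log2 scale in 2D (SE, adjusted p = 2.8e-12), to 16.4% of control. In clone 2 in 2D it fell by 4.1 ± 0.19 (edgeR, adjusted p = 1.8e-14), to 5.71% of control. In 3D the fall was 2.06 ± 0.12 in clone 1 and 1.41 ± 0.12 in clone 2 (edgeR, log2 fold changes of -2.06 and -1.41, adjusted p = 4.6e-13 and 5.4e-10), to 23.9% and 37.5% of control. The control libraries are shared by both comparisons of a format. Within 1 Mb of Nlrc5, 33 tested genes outside the lists had a median of -0.27 in clone 1 and 0.00 in clone 2 in 2D, and of -0.10 and -0.03 in 3D. With each chromosome's median shift removed, Nlrc5 was at -2.48 and -4.08 in 2D and at -1.89 and -1.45 in 3D. Labels do not say whether the 2 libraries of a group are separate cultures, so p-values measure the spread between these libraries only.

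**Figure D1:**
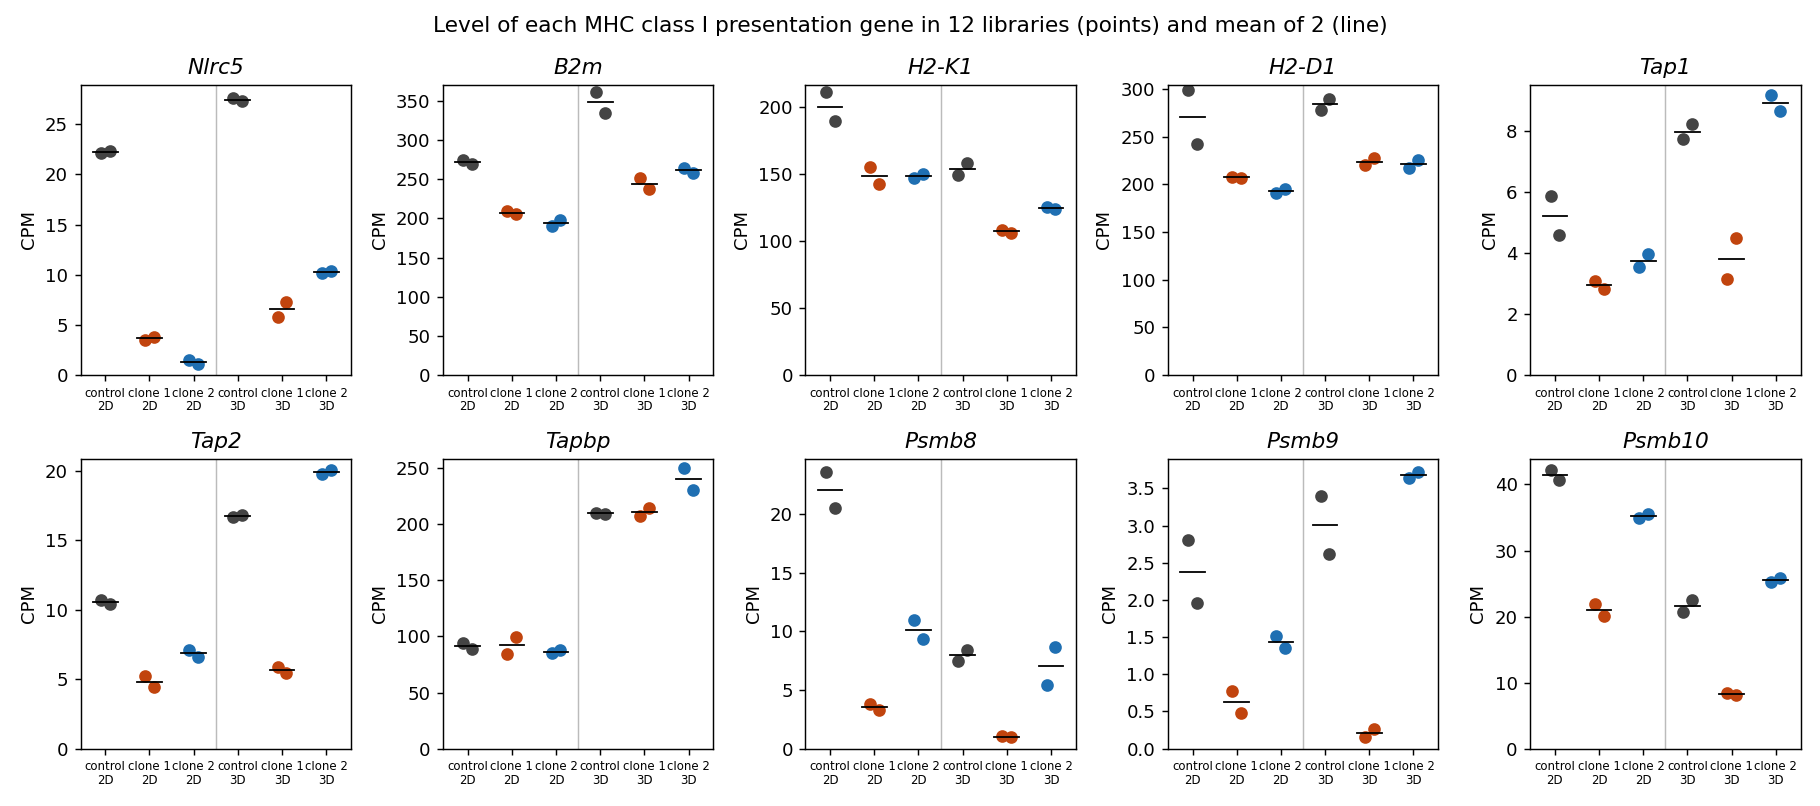
Level of each of the 10 genes in CPM (vertical axis, from 0) in the 6 groups (horizontal axis), where each point is 1 library and each line the mean of 2. Nlrc5, B2m, H2-K1 and H2-D1 are lower in both clones in both formats, while Psmb8, Psmb9, Psmb10, Tap1 and Tap2 are lowest in clone 1 and near or above control in clone 2 in 3D.

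B2m, the invariant light chain of every class I molecule (ENSMUSG00000060802.8, chr2:122147686-122153083), was moderately lower in both clones. Against 275 and 269 CPM in control libraries in 2D, clone 1 had 210 and 205 and clone 2 had 190 and 198. Against 362 and 335 CPM in 3D, clone 1 had 252 and 237 and clone 2 had 265 and 258. No clone library reached a control library of its format. The edgeR log2 fold changes in 2D were -0.39 ± 0.05 in clone 1 (adjusted p = 2.5e-06) and -0.49 ± 0.05 in clone 2 (adjusted p = 1.7e-07). In 3D they were -0.51 ± 0.05 and -0.41 ± 0.05 (adjusted p = 9.4e-09 and 6.3e-07), and clone levels lay between 70.2% and 76.3% of control over the 4 comparisons.

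H2-K1 encodes the classical K heavy chain (ENSMUSG00000061232.16, chr17:33996017-34000347). Control libraries had 211 and 189 CPM in 2D, while clone 1 had 155 and 142 and clone 2 had 147 and 150. Control libraries had 149 and 158 CPM in 3D, while clone 1 had 108 and 106 and clone 2 had 125 and 124. Clone libraries were below those of control in each format, and unlike B2m the gene was lower in 3D than in 2D in every kind of cell. By edgeR it fell by 0.43 ± 0.06 on the log2 scale in each clone in 2D (adjusted p = 3e-06 and 4.5e-06). In 3D H2-K1 fell by 0.52 ± 0.06 in clone 1 and by 0.30 ± 0.06 in clone 2 (edgeR, adjusted p = 5e-08 and 0.00024).

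H2-D1 encodes the classical D heavy chain (ENSMUSG00000073411.11, chr17:35262730-35267499). In 2D the control libraries had 299 and 242 CPM, clone 1 had 208 and 207 and clone 2 had 191 and 195. In 3D these levels were 278 and 290 CPM for control, 220 and 228 for clone 1 and 217 and 226 for clone 2. The 2 control libraries in 2D lay far apart for this gene, and both were above all clone libraries of that format. The log2 fold changes by edgeR were -0.38 ± 0.07 and -0.49 ± 0.07 in 2D for clones 1 and 2 (adjusted p = 5.5e-05 and 3.7e-06) and -0.34 ± 0.06 and -0.36 ± 0.06 in 3D (adjusted p = 8.7e-05 and 9.6e-05). Without the first control library in 2D, the clone 1 difference was -0.22 (adjusted p = 0.0042). Of the 50-base stretches of the longest transcript, 14.3% for H2-D1 and 8.11% for H2-K1 also occur in other genes, so reads can be shared among class I genes and both levels are uncertain, by an amount that was not measured.

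Chromosome 17, which holds 7 of the 10 genes, was itself shifted in the clones. Its 664 tested genes outside the lists had median log2 fold changes of 0.24 (2D) and 0.28 (3D) for clone 1, and of -0.06 and -0.13 for clone 2. Within 1 Mb of the stretch from Tapbp to H2-D1, 115 genes had medians of 0.22, 0.21, -0.05 and -0.16 in the same order. With chromosome medians removed, H2-K1 was at -0.69 and -0.76 in clone 1 in 2D and 3D and at -0.31 and -0.16 in clone 2, the last with an adjusted p of 0.052 by edgeR. H2-D1 was at -0.65 and -0.58 in clone 1 and at -0.36 and -0.21 in clone 2, all still past the threshold. Chromosome 2, with B2m, had medians over 1061 genes of 0.11 and 0.13 for clone 1 and of 0.04 and 0.05 for clone 2, and B2m with medians removed was at -0.50 and -0.61, and at -0.50 and -0.44. The number of gene copies in the clones was not measured.

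Psmb8 encodes an inducible catalytic subunit that takes the place of Psmb5 in the immunoproteasome (ENSMUSG00000024338.15, chr17:34197721-34201454). The control libraries had 23.6 and 20.5 CPM in 2D, clone 1 had 3.84 and 3.29 and clone 2 had 11 and 9.32. The 3D levels were 7.51 and 8.45 CPM for control, 1.06 and 0.999 for clone 1 and 5.39 and 8.65 for clone 2. Clone 1 was far below control in both formats, whereas clone 2 lay between them in 2D and overlapped control in 3D. The edgeR log2 fold changes for clone 1 were -2.62 ± 0.21 in 2D and -2.95 ± 0.24 in 3D (adjusted p = 2.4e-10 and 1.5e-10). For clone 2 they were -1.11 ± 0.17 and -0.19 ± 0.17 (adjusted p = 1.6e-05 and 0.45).

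Psmb9, the inducible counterpart of Psmb6 (ENSMUSG00000096727.3, chr17:34181987-34187764), was the least abundant of the 10 genes in CPM in 3D. In 2D the control libraries had 2.80 and 1.96 CPM, clone 1 had 0.769 and 0.482 and clone 2 had 1.52 and 1.35. In 3D the control libraries had 3.39 and 2.62 CPM, clone 1 had 0.152 and 0.258 and clone 2 had 3.64 and 3.72. Clone 1 was the lowest group in each format, with only 11 and 6 counts in 2D and 4 and 8 in 3D. Psmb9 fell in clone 1 by 1.89 ± 0.43 in 2D and by 3.81 ± 0.40 in 3D on the log2 scale (edgeR, adjusted p = 0.00085 and 1.4e-08). In clone 2 the differences of -0.71 ± 0.35 in 2D and 0.29 ± 0.25 in 3D did not pass (edgeR, adjusted p = 0.12 and 0.42).

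Psmb10, the inducible counterpart of Psmb7 (ENSMUSG00000031897.9, chr8:105935735-105938444), lies on the chromosome of Nlrc5. Its 2D levels were 42.2 and 40.7 CPM for control, 21.9 and 20.1 for clone 1 and 34.9 and 35.6 for clone 2. Its 3D levels were 20.7 and 22.5 CPM for control, 8.43 and 8.15 for clone 1 and 25.2 and 25.8 for clone 2. Clone 2 was below control in 2D and above it in 3D, with no overlap in either. In clone 1 Psmb10 fell by 0.98 ± 0.10 in 2D and by 1.38 ± 0.10 in 3D on the log2 scale (edgeR, adjusted p = 1.1e-08 and 1.8e-11). The clone 2 differences were small, -0.24 ± 0.09 in 2D and 0.24 ± 0.09 in 3D (edgeR, adjusted p = 0.044 and 0.043). They missed the threshold in 13 and 10 of 19 alternative settings, with adjusted p from 0.022 to 0.14 and from 0.004 to 0.32.

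Set against their standard counterparts on a scale per kb of exon, the inducible subunits were a minor share of each pair. Psmb8 was 13.3% and 12.3% of the Psmb8 and Psmb5 sum for control in 2D, 1.94% for both libraries of clone 1 and 5.64% and 4.26% for clone 2. In 3D this share was 7.29% and 7.81% for control, 0.915% and 0.775% for clone 1 and 5.48% and 8.48% for clone 2. Psmb10 was 23.8% of the Psmb10 and Psmb7 sum for both control libraries in 2D, 12.8% and 12.3% for clone 1 and 18.8% and 18% for clone 2. In 3D the Psmb10 share was 36.3% and 38.1% for control, 17.6% and 18.1% for clone 1 and 46.5% and 45.2% for clone 2. Within each format, clone 1 had the lowest share for all 3 pairs. Psmb9 never exceeded 2.29% of the Psmb9 and Psmb6 sum and was at 0.128% to 0.233% in clone 1.

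The standard subunits themselves were picked as counterparts after their values were seen. In clone 1 each differed from control by less than its inducible counterpart in both formats, whereas in clone 2 Psmb7 and Psmb10 had differences of about equal size. Psmb5 rose by 0.27 ± 0.09 in clone 1 and 0.39 ± 0.09 in clone 2 in 2D and by 0.32 ± 0.09 in clone 1 in 3D (edgeR log2 fold changes, adjusted p = 0.023, 0.0016 and 0.0048). Psmb6 fell in clone 1 by 0.28 ± 0.06 in 2D and by 0.57 ± 0.06 in 3D (edgeR, adjusted p = 0.00064 and 5.6e-08) and rose by 0.25 ± 0.06 in clone 2 in 2D (adjusted p = 0.0021). Psmb7 was at 0.14 and 0.24 in 2D and at 0.07 and -0.28 in 3D for clones 1 and 2, all past the threshold but the 0.07. These values include any shift of a gene's chromosome. In the list of 19 standard proteasome and activator genes that holds them, clone 1 had 8 higher and 9 lower in 2D and 4 and 9 in 3D. With chromosome medians removed, these counts were 2 and 3 in 2D and 3 and 2 in 3D.

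**Figure D2:**
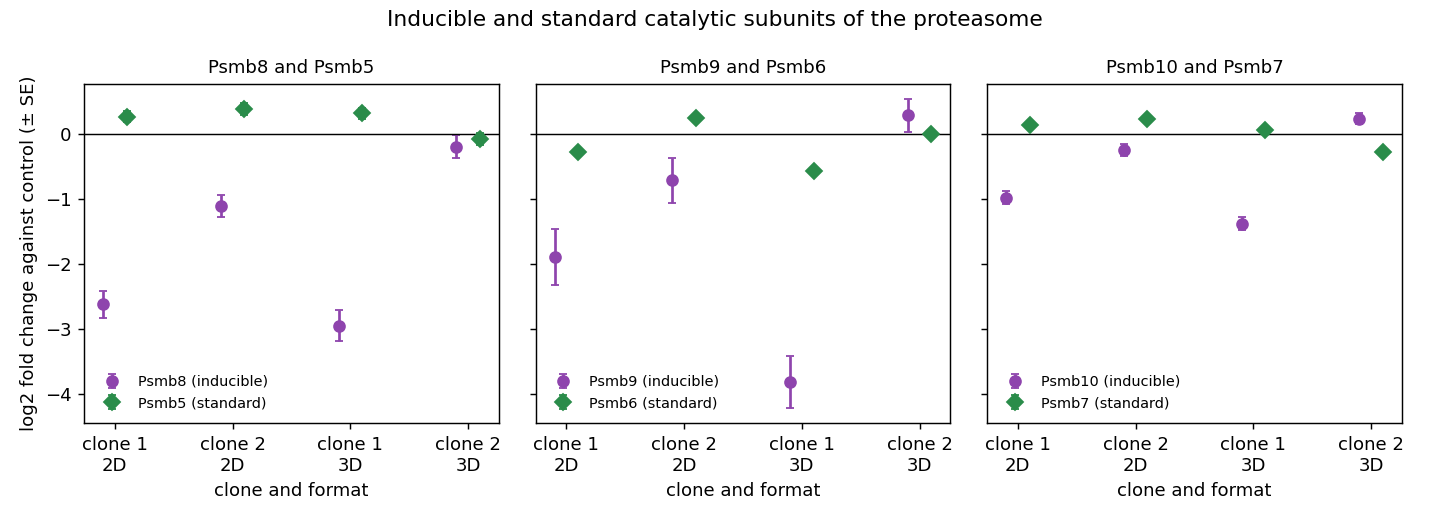
Log2 fold change against control (vertical axis, ± SE) of each inducible catalytic subunit (circles) and its standard counterpart (diamonds) for both clones in both formats (horizontal axis). The inducible subunits lie between -0.98 and -3.81 in clone 1, and the standard ones between -0.57 and 0.39 in all comparisons.

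Tap1 and Tap2 encode the 2 chains of the peptide transporter. For Tap1 (ENSMUSG00000037321.17, chr17:34187553-34197225) the 2D libraries had 5.87 and 4.59 CPM for control, 3.08 and 2.81 for clone 1 and 3.53 and 3.98 for clone 2. The 3D libraries had 7.73 and 8.24 CPM for control, 3.15 and 4.48 for clone 1 and 9.20 and 8.65 for clone 2. Clone 1 was below control in both formats, and clone 2 was below it in 2D and above it in 3D. Tap1 fell in clone 1 by 0.82 ± 0.24 in 2D and by 1.05 ± 0.18 in 3D on the log2 scale (edgeR, adjusted p = 0.0084 and 2e-05), and without the first control library the 2D value was -0.64 with an adjusted p of 0.086. The clone 2 differences of -0.48 ± 0.22 and 0.16 ± 0.16 did not pass (edgeR, adjusted p = 0.099 and 0.49).

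Tap2 (ENSMUSG00000024339.12, chr17:34203527-34216321) had the same order of groups as Tap1 within each format. The 2D libraries had 10.7 and 10.4 CPM for control, 5.24 and 4.42 for clone 1 and 7.11 and 6.61 for clone 2. The 3D libraries had 16.7 and 16.8 CPM for control, 5.89 and 5.48 for clone 1 and 19.8 and 20.1 for clone 2. The 3 groups did not overlap in either format, with clone 1 lowest in both. By edgeR Tap2 fell in clone 1 by 1.12 ± 0.17 in 2D and 1.56 ± 0.13 in 3D on the log2 scale (adjusted p = 5.2e-06 and 1.3e-10). In clone 2 it fell by 0.61 ± 0.15 in 2D (edgeR, adjusted p = 0.0023) and was at 0.25 ± 0.11 in 3D (adjusted p = 0.084). That 3D difference passed with the 3D libraries fitted alone (0.25, adjusted p = 0.0058 by edgeR) and with chromosome medians removed (0.40, adjusted p = 0.0083).

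Tapbp encodes tapasin, which holds empty class I molecules at the transporter (ENSMUSG00000024308.15, chr17:33915899-33929292). Control libraries in 2D had 94.1 and 88.4 CPM, clone 1 had 84.7 and 99.1 and clone 2 had 84.9 and 87.5. Control libraries in 3D had 210 and 209 CPM, clone 1 had 207 and 214 and clone 2 had 250 and 230. Groups in 2D overlapped or nearly met, and what set the gene apart was its level in 3D. The edgeR log2 fold changes were 0.01 ± 0.07 and -0.08 ± 0.07 in 2D and 0.01 ± 0.06 in clone 1 in 3D (adjusted p = 0.99, 0.38 and 0.91), and 0.20 ± 0.06 in clone 2 in 3D (adjusted p = 0.013). The last did not pass without the first clone 2 library (0.13, adjusted p = 0.26) or without either control library (adjusted p = 0.081 and 0.099) in 3D, and with chromosome medians removed it was 0.34. Removing chromosome medians also turned clone 1 to -0.26 in 2D and -0.22 in 3D (edgeR, adjusted p = 0.0065 and 0.0053).

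Several of these genes share exon sequence with annotated neighbours. The share of exon length covered on the opposite strand was 24.9% for Tapbp, 18.5% for Tap2, 14.7% for Psmb8, 5.79% for Psmb9, 3.87% for Tap1 and 0.918% for Nlrc5, and Tapbp also has 4.11% on the same strand. The strand setting of the counting is not given in the sources used here, so these counts are uncertain, by an amount that was not measured. B2m, H2-K1, H2-D1 and Psmb10 have no overlap.

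Counted over the set, 9 of 10 genes were lower and 0 higher in clone 1 in 2D, where 20% of all tested genes were lower and 19.8% higher. Clone 2 in 2D had 7 lower and 0 higher, against 15% and 18.9% of all genes. Clone 1 in 3D had 9 lower and 0 higher, against 23% and 22%. In clone 2 in 3D 4 were lower and 2 higher, against 17.4% and 11.9%. The 1631 genes higher in this last comparison were 868 and 811 without the first or second control library in 3D, 843 and 851 without the first or second clone 2 library, and 2953 with the 3D libraries alone, and the 2392 lower were 1593 without the first clone 2 library. The zeros in edgeR's test were 0 also at an unadjusted p under 0.05 and in DESeq2's Wald test. The medians of the 10 log2 fold changes were -0.90, -0.49, -1.22 and -0.02 in that order, with medians over all genes between 0.00 and 0.02. For clone 1 in 3D, the split over all genes was 3034 higher and 3167 lower, and 2936 and 1922 with chromosome medians removed.

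**Figure D3:**
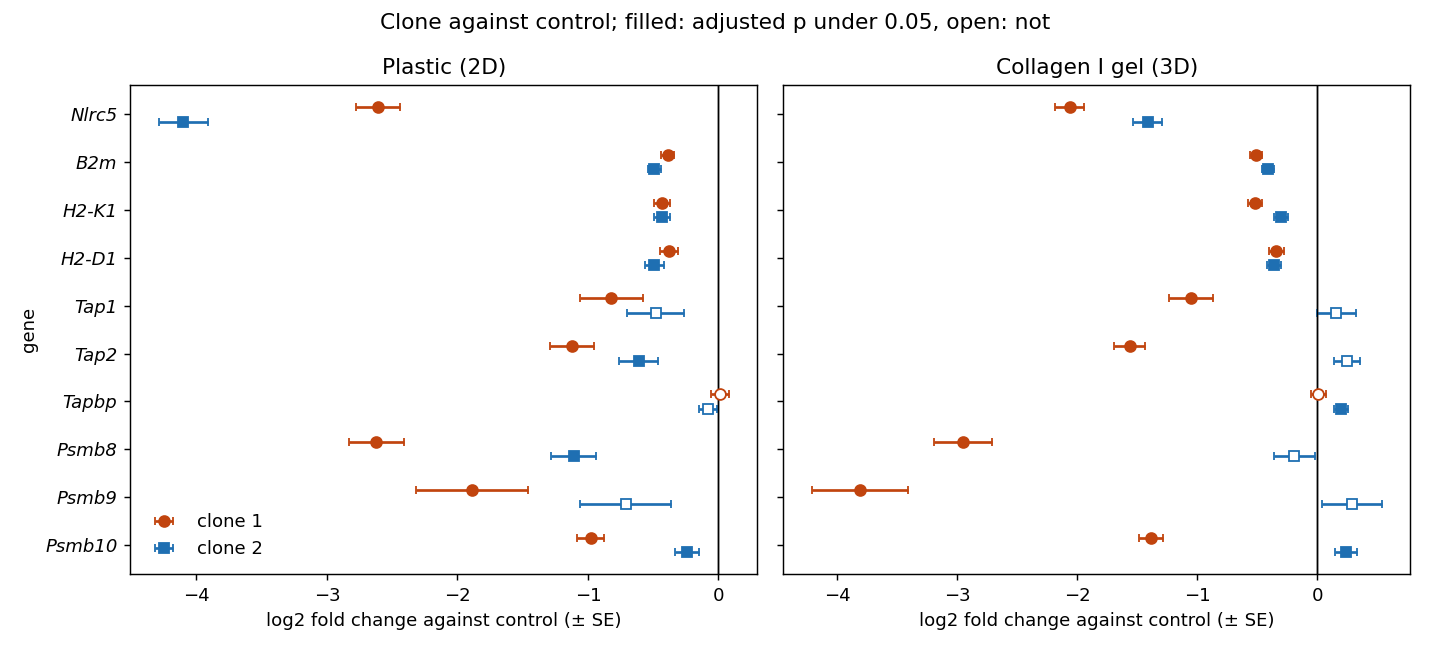
Log2 fold change of each gene against control (horizontal axis, ± SE) in 2D (left) and 3D (right) for clone 1 (circles) and clone 2 (squares), filled where the adjusted p is under 0.05. Nlrc5, B2m, H2-K1 and H2-D1 are filled and left of 0 in all 4 comparisons, while the inducible proteasome subunits and Tap1 and Tap2 reach from -3.81 in clone 1 to 0.29 in clone 2 in 3D.

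The clones were also compared directly. In 2D clone 2 was below clone 1 in Nlrc5 (log2 fold change -1.49 ± 0.27, edgeR, adjusted p = 6.9e-05) and above it in Psmb8, Psmb9, Psmb10 and Tap2. Psmb8 was higher by 1.51 ± 0.23 (edgeR, adjusted p = 5.9e-06), Psmb10 by 0.74 ± 0.10 (adjusted p = 9.5e-07), Psmb9 by 1.18 ± 0.46 (adjusted p = 0.041) and Tap2 by 0.50 ± 0.17 (adjusted p = 0.022). These 1 lower and 4 higher genes stand against 18.4% and 23.2% of all genes. Psmb9 missed the threshold in 10 of 19 alternative settings (adjusted p up to 0.21) and Tap2 in 5 (up to 0.15), among them those without the second clone 1 library in 2D or the first clone 2 library in 2D.

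In 3D 8 genes were higher in clone 2 than in clone 1 and 0 lower, where 26.4% of all genes were higher and 28.5% lower. Psmb9 was higher by 4.1 ± 0.39 (edgeR, adjusted p = 1.1e-09), Psmb8 by 2.76 ± 0.24 (adjusted p = 2.9e-10), Tap2 by 1.82 ± 0.12 (adjusted p = 2.2e-12), Psmb10 by 1.62 ± 0.10 (adjusted p = 2.5e-13) and Tap1 by 1.21 ± 0.17 (adjusted p = 1.3e-06). Nlrc5 was higher by 0.64 ± 0.13, H2-K1 by 0.22 ± 0.06 and Tapbp by 0.19 ± 0.06 (edgeR, adjusted p = 0.00019, 0.0023 and 0.0094). B2m was at 0.10 ± 0.05 and H2-D1 at -0.02 ± 0.06 (edgeR, adjusted p = 0.11 and 0.86). Tapbp missed the threshold without the first clone 2 library (0.12, adjusted p = 0.19) or either clone 1 library in 3D (adjusted p = 0.07 and 0.059), and H2-K1 without the second clone 1 library (0.18, adjusted p = 0.053). At an unadjusted p under 0.05 and by DESeq2, 0 genes were lower. With chromosome medians removed, all 7 genes on chromosome 17 shifted upward by similar amounts. H2-D1 was then higher in clone 2 in both formats (0.28 in 2D and 0.36 in 3D), as were H2-K1 and Tapbp in 2D (0.38 and 0.30).

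Comparing 3D with 2D gives the joint difference of culture format, collagenase digestion of the gels and count table, which cannot be told apart. In control 5 genes were higher in 3D and 3 lower, against 41.7% and 35.6% of all genes. Clone 1 had 3 higher and 4 lower, against 39.8% and 35.3%, and clone 2 had 7 higher and 3 lower, against 42.5% and 37%. The median of the 10 was 0.32 for control, 0.17 for clone 1 and 0.84 for clone 2, where that of all genes was 0.10, 0.08 and 0.11.

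Tapbp, B2m and Nlrc5 were higher in 3D in every kind of cell, and H2-K1, Psmb8 and Psmb10 were lower in every kind. Tapbp rose by 1.20 ± 0.06 in control and in clone 1 and by 1.48 ± 0.06 in clone 2 (edgeR log2 fold changes, adjusted p = 2.5e-15, 2.9e-15 and 1.9e-17). Psmb8 fell by 1.47 ± 0.17 in control, by 1.80 ± 0.31 in clone 1 and by 0.55 ± 0.18 in clone 2 (adjusted p = 9.1e-09, 8.7e-06 and 0.0078). The clone 2 value of Psmb8 was -0.23 without its first 3D library (adjusted p = 0.28) and -0.41 without its first 2D library (adjusted p = 0.1). Psmb10 fell by 0.94 ± 0.09, 1.34 ± 0.11 and 0.47 ± 0.09 in control, clone 1 and clone 2 (adjusted p = 3.8e-10, 1.6e-11 and 3.5e-05).

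The 3D difference of Nlrc5 was 0.31 ± 0.12 in control (edgeR, adjusted p = 0.019), 0.86 ± 0.18 in clone 1 (adjusted p = 0.00016) and 2.99 ± 0.21 in clone 2 (adjusted p = 3.5e-13). In control it missed the threshold without either 3D library (adjusted p = 0.067 and 0.056) and with chromosome medians removed (0.23, adjusted p = 0.07). Tap1 and Tap2 rose in 3D in control (0.61 ± 0.19 and 0.67 ± 0.13, edgeR, adjusted p = 0.0049 and 3.6e-05) and in clone 2 (1.26 ± 0.19 and 1.54 ± 0.13, adjusted p = 1.7e-06 and 3.7e-11), and were at 0.38 ± 0.23 and 0.22 ± 0.17 in clone 1 (adjusted p = 0.14 and 0.23). Without the second control library in 2D, Tap1 was at 0.45 in control (adjusted p = 0.068). Psmb9 fell in 3D in clone 1 by 1.58 ± 0.60 and rose in clone 2 by 1.35 ± 0.31 (edgeR, adjusted p = 0.021 and 0.00028), the first resting on the few counts given above and lost without the first clone 1 library of either format (adjusted p = 0.21 and 0.099).

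Whether a clone's difference from control depended on format was tested as an interaction, the 3D difference minus the 2D difference. For clone 1 no gene passed in edgeR or in DESeq2, against 3.44% of all genes lower and 3.57% higher. At an unadjusted p under 0.05, 3 genes were lower and 1 higher by edgeR, namely Psmb9, Psmb10 and Tap2 at -1.92 ± 0.67, -0.40 ± 0.14 and -0.44 ± 0.21 and Nlrc5 at 0.55 ± 0.22 (adjusted p = 0.083, 0.084, 0.22 and 0.13). Without the first control library in 2D, Psmb9 passed (-2.19, adjusted p = 0.045). Over all genes the split for clone 1 was 492 higher and 474 lower, and 694 and 371 without Gm26917 and Gm42418.

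For clone 2, 5 genes were higher in this test and 0 lower, also at an unadjusted p under 0.05 and by DESeq2 for the 0, against 7.43% and 14.8% of all genes. Nlrc5 had the largest value, 2.68 ± 0.25 (edgeR, adjusted p = 2.2e-08), followed by Psmb8 at 0.92 ± 0.24, Tap2 at 0.87 ± 0.19, Psmb10 at 0.47 ± 0.13 and Tapbp at 0.28 ± 0.09 (adjusted p = 0.0077, 0.0013, 0.0077 and 0.028). B2m, H2-K1 and H2-D1 were at 0.07 ± 0.08, 0.13 ± 0.08 and 0.13 ± 0.09 (adjusted p = 0.54, 0.3 and 0.37), so the clone 2 deficit of these 3 differed between formats by less than the test could call. Psmb8 missed the threshold without the second clone 2 library in 3D (0.53, adjusted p = 0.17) and, with Psmb10, without the first control library in 3D (0.83 and 0.40, adjusted p = 0.054 and 0.064). Tapbp missed it in 5 of 18 settings, each without 1 library: the first of clone 2 in 2D, the first of clone 2 in 3D, the first control in 2D or either control in 3D (adjusted p from 0.083 to 0.17). The count was 2 without the first control library in 3D and 8 without the second in 2D. Beside this, Etv4 itself had an interaction of 0.57 ± 0.09 in clone 2 (edgeR, adjusted p = 5.5e-05). The split over all genes was 1022 higher and 2037 lower, and 1231 and 1577 without Gm26917 and Gm42418.

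Correlations over the 12 libraries, with the mean of each format subtracted from log2 CPM, describe how the genes went together. Nlrc5 had Pearson r of 0.91 with B2m, 0.89 with H2-D1 and 0.87 with H2-K1, and of 0.42 to 0.59 with Tap1, Tap2 and the inducible proteasome subunits. Those 5 had r of 0.92 to 0.98 with each other. H2-K1 lay between both blocks, at 0.69 to 0.82 with the second, and Tapbp had r from -0.06 to 0.37 with all others. The 12 libraries fall into 6 groups and share controls and clones, so the values carry no test.

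**Figure D4:**
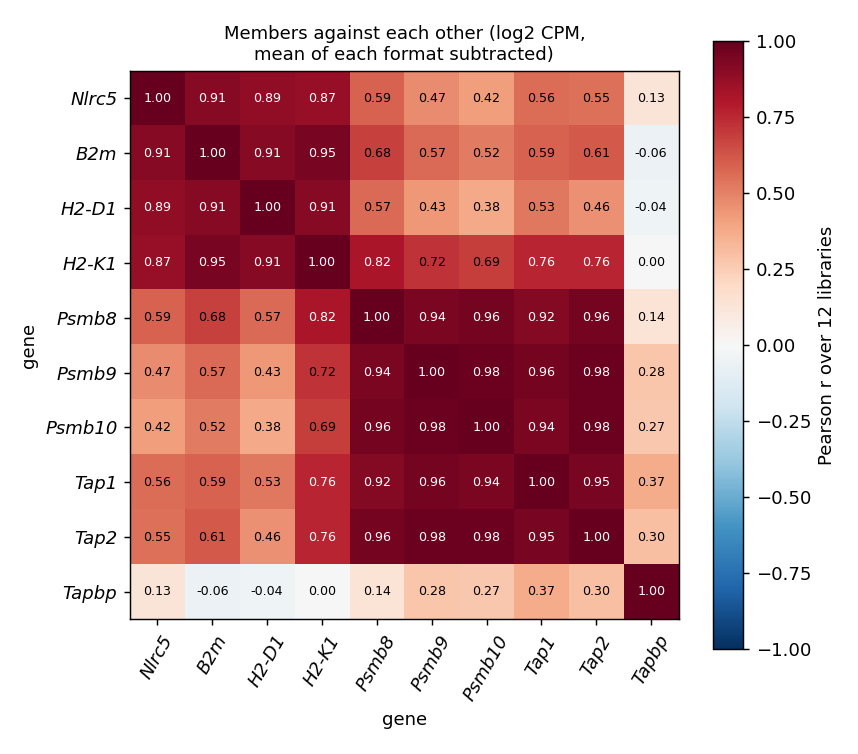
Pearson r between each pair of the 10 genes (both axes) over 12 libraries, from log2 CPM with the mean of each format subtracted, colored from -1 to 1. The pairs fall into blocks, Nlrc5 with B2m, H2-D1 and H2-K1 (0.87 to 0.95) and Psmb8, Psmb9, Psmb10, Tap1 and Tap2 (0.92 to 0.98), with Tapbp apart.

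Per kb of exon, B2m was the most abundant of the 10 in each group, from 226 CPM per kb in clone 2 in 2D to 405 in control in 3D. H2-D1 followed at 74.9 to 110 CPM per kb, and H2-K1 was at 36.3 to 68.1. Tapbp was at 23.8 to 66.0 CPM per kb, Psmb10 at 4.86 to 24.3, Psmb8 at 0.305 to 6.53 and Tap2 at 1.28 to 5.28. Nlrc5 was at 0.149 to 3.23 CPM per kb, Tap1 at 0.538 to 1.63 and Psmb9 at 0.056 to 1.01. In mean CPM, the order of groups for Nlrc5 was control 3D, control 2D, clone 2 3D, clone 1 3D, clone 1 2D and clone 2 2D, and that of B2m was the same, with no overlap between neighbours for either. H2-D1 kept control above clones, and control 3D with control 2D and clone 1 3D with clone 2 3D overlapped. For H2-K1, control 3D, clone 1 2D and clone 2 2D overlapped in a row. Tap1 and Tap2 were highest in clone 2 3D, Psmb8 and Psmb10 in control 2D.

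Other class I heavy chain and class I-like genes were lower in part. Among all tested genes, 20% were lower and 19.8% higher in clone 1 in 2D, and 15% and 18.9% in clone 2 in 2D. In 3D these shares were 23% and 22% in clone 1 and 17.4% and 11.9% in clone 2. Of 13 tested (of 14 counted), 5 were lower in each clone in 2D, 9 in clone 1 in 3D and 4 in clone 2 in 3D, with 1 higher in the last and 0 in the others, where edgeR at an unadjusted p under 0.05 and DESeq2 also gave 0. H2-Q6, a Qa-2 family gene, fell in all 4 comparisons, by 1.55 ± 0.21 and 0.78 ± 0.18 in 2D and by 2.53 ± 0.17 and 0.88 ± 0.15 in 3D for clones 1 and 2 (edgeR, adjusted p = 1.2e-06, 0.0015, 4.4e-12 and 3.6e-05). Mr1, which presents vitamin B metabolites and was picked after its values were seen, fell in both clones, with log2 fold changes of -2.21 ± 0.45 and -2.22 ± 0.43 in 2D and of -2.62 ± 0.30 and -1.84 ± 0.27 in 3D (edgeR, adjusted p = 3e-04, 0.00024, 6e-08 and 7.7e-06). Mr1 was scarce, with a mean of 2.06 CPM over all libraries. Clone libraries in 2D had only 0.217 to 1.07 CPM of it, against 2.8 and 2.77 in control. H2-Q4 fell in both clones in 2D and in clone 1 in 3D and was at -0.06 ± 0.08 in clone 2 in 3D (edgeR, adjusted p = 0.57). H2-T23, the Qa-1 gene, fell in clone 1 in 3D by 0.35 ± 0.11 and rose in clone 2 in 3D by 0.55 ± 0.10 (edgeR, adjusted p = 0.0095 and 0.00017). Of 50-base stretches, 32% of H2-Q6 and 22% of H2-Q4 occur in other genes, and 0 of Mr1.

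Peptide loading and trimming genes, 5 in number, were mixed, with 1 higher and 2 lower in clone 1 in 2D, 1 and 0 in clone 2 in 2D (0 also unadjusted and in DESeq2), 2 and 2 in clone 1 in 3D and 1 and 1 in clone 2 in 3D. Erap1, the aminopeptidase that trims peptides, fell in clone 1 by 0.55 ± 0.08 in 2D and 0.46 ± 0.08 in 3D (edgeR, adjusted p = 8.1e-06 and 3e-05), and Pdia3, the thiol oxidoreductase of the loading complex, rose in clone 1 by 0.36 ± 0.07 and 0.51 ± 0.07 (adjusted p = 0.00037 and 6.9e-07). The median of this list in clone 1 was -0.25 in 2D and -0.18 in 3D, and 0.14 and 0.30 with chromosome medians removed. Among 19 standard proteasome and activator genes, 8 were higher and 9 lower in clone 1 in 2D, 13 and 2 in clone 2 in 2D, 4 and 9 in clone 1 in 3D and 2 and 7 in clone 2 in 3D. With chromosome medians removed, the clone 1 counts were 2 and 3 in 2D and 3 and 2 in 3D. Psme1, a subunit of the interferon-inducible activator, fell in clone 1 in both formats and in clone 2 in 2D (-0.33 ± 0.09, -0.47 ± 0.08 and -0.43 ± 0.09) and rose in clone 2 in 3D (0.39 ± 0.08, edgeR, adjusted p = 6e-04). Psme3, another activator subunit, had 3D means of 182, 145 and 156 CPM in control, clone 1 and clone 2. In 3D against 2D, 17 of the 19 were lower in each kind of cell, where 35.6%, 35.3% and 37% of all genes were lower in control, clone 1 and clone 2.

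The interferon genes split by clone and format. Of 18 interferon-stimulated genes tested, 2 were higher and 8 lower in clone 1 in 2D, 2 and 6 in clone 2 in 2D, 0 and 13 in clone 1 in 3D and 13 and 0 in clone 2 in 3D, with medians of -0.80, 0.02, -1.03 and 0.68. The zeros in this list stayed 0 at an unadjusted p under 0.05 in edgeR and in DESeq2, which called 11 lower in clone 1 and 9 higher in clone 2 in 3D. Gbp2, a guanylate-binding protein induced by interferon, had a 3D mean of 9.54 CPM for control, 3.07 for clone 1 and 17.8 for clone 2, with log2 fold changes of -1.62 ± 0.16 and 0.90 ± 0.13 (edgeR, adjusted p = 6.7e-09 and 6.7e-06). Ddx58, which encodes the RNA sensor RIG-I, fell in clone 1 in 2D and 3D by 0.61 ± 0.12 and 0.98 ± 0.10 and in clone 2 in 2D by 0.48 ± 0.12, and rose in clone 2 in 3D by 0.46 ± 0.10 (edgeR, adjusted p = 0.00021, 1.7e-08, 0.002 and 0.00064). Of 13 receptor and signalling genes, 0 were higher and 4 lower in clone 1 in 2D, 3 and 2 in clone 2 in 2D, 0 and 8 in clone 1 in 3D and 4 and 2 in clone 2 in 3D. With chromosome medians removed, the first of these was 3 and 3. The zeros again stayed 0 at an unadjusted p under 0.05 and in DESeq2. Jak2, a kinase of the interferon gamma receptor, fell in clone 1 in 3D by 0.83 ± 0.05 and rose in clone 2 there by 0.40 ± 0.05 (edgeR, adjusted p = 1.3e-12 and 7.7e-07).

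Factors that bind class I promoters showed no shared direction, with 3 higher and 3 lower of 12 in clone 1 in 2D and again in 3D, 1 and 0 in clone 2 in 2D and 2 and 3 in clone 2 in 3D. The 0 was 2 at an unadjusted p under 0.05 in edgeR and 0 in DESeq2. Removing chromosome medians left 1 factor higher and 0 lower for clone 1 in 2D. Its 3D counts became 3 higher and 1 lower. Clone 2 then had 3 higher and 1 lower in 2D, with 2 each way in 3D. The 2D falls of Irf1 and Rfx5 in clone 1, given next, were thus not called in that setting. At most 1 of their 3D falls was. Irf1, an interferon regulatory factor, fell in clone 1 by 0.54 ± 0.08 in 2D and 0.59 ± 0.08 in 3D and rose in clone 2 in 3D by 0.31 ± 0.08 (edgeR, adjusted p = 4.3e-06, 1.2e-06 and 0.0026). Rfx5, the X box factor, fell in clone 1 by 0.42 ± 0.14 and 0.64 ± 0.11 (adjusted p = 0.016 and 2.2e-05) and was at 0.04 ± 0.10 in clone 2 in 3D. Nfyb, a subunit of the Y box factor NF-Y, rose by 0.23 ± 0.08 and 0.45 ± 0.08 in clones 1 and 2 in 2D and by 0.39 ± 0.08 in clone 1 in 3D (edgeR, adjusted p = 0.026, 7e-05 and 0.00015). Of the 8 MHC class II genes, 2 were tested, and 3 to 7 had no counts in a group. Of the 6 epithelial markers, 3 were higher and 3 lower in clone 1 in 2D, 4 and 1 in clone 2 in 2D, 2 and 4 in clone 1 in 3D and 1 and 3 in clone 2 in 3D. Among them Epcam was at -0.52 ± 0.05 and 0.51 ± 0.05 in 2D and -0.73 ± 0.05 and 0.44 ± 0.05 in 3D for clones 1 and 2 (edgeR, adjusted p = 1.9e-08, 3.9e-08, 1.1e-11 and 1.5e-07), while Krt19 was at 0.82 ± 0.07 and 0.65 ± 0.07 in 2D and at 0.39 ± 0.06 and -0.17 ± 0.06 in 3D, all past the threshold. The part of these markers in the class I results was not tested.

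Among 9498 tested genes with an official symbol and a mean of at least 5 CPM, the 5 whose pattern was most like Nlrc5 over the 12 libraries, again with each format's mean subtracted, were Nptx1 (r = 0.973), Cluh (0.97), Dcaf8 (0.959), Tmem181a (0.954) and Mprip (0.953). B2m ranked 36, H2-D1 51 and H2-K1 74 among them. Nptx1 had 2D means of 24.8, 16.3 and 10.1 CPM for control, clone 1 and clone 2 and 3D means of 385, 213 and 254. For H2-K1 the genes named are Trim37 (r = 0.961), Rae1 (0.954), Scly (0.953) and Isoc1 (0.951), with B2m at rank 12. For Psmb8 they were Aspscr1 (r = 0.989), Prpsap2 (0.985), Sp100 (0.983), Ctsc (0.983) and Sh3pxd2b (0.98), with Tap2 at rank 62 and Psmb10 at rank 73. Sp100, a nuclear body protein, stood at a mean of 5.73, 0.521 and 2.57 CPM in 2D and 16.1, 1.65 and 10.8 in 3D. Ctsc, the protease cathepsin C, stood at 28.2, 6.78 and 17.2 CPM in 2D and 16.6, 3.14 and 12.4 in 3D in the same order of groups.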

How the data were processed

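The authors deposited raw read counts per gene symbol, 1 table for 2D and 1 for 3D libraries. Per the submitters' processing notes, the genome build was mm10 and the tools were STAR 2.7.9a, FastQC 0.11.9, Cell Ranger 3.0.0, featureCounts and R 4.1.1. The role of each is not given in the sources used here. Per the labels' protocols, libraries were made with a stranded mRNA kit.

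Both tables (2) were joined by symbol. Genes were filtered with filterByExpr (minimum count 10), libraries scaled by TMM, and 6 group means fitted over 12 libraries with edgeR 4.0.16 in R 4.3.3 (6 residual degrees of freedom, biological coefficient of variation 4.51%). P-values are two-sided from edgeR's quasi-likelihood test, adjusted by Benjamini-Hochberg over 13763 genes in each of 11 comparisons, with a threshold of 0.05. The fit was tested on simulated data. Replicates of each group differed by more than sampling noise (chi-square per degree of freedom 3.51 to 9.51). Levels per kb use exon lengths of GENCODE M21, which matched 98.3% of symbols. Correlations use log2 CPM with a prior count of 2.

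The 10 genes and the wider lists were chosen with earlier results of these data known. All 10 are named in every comparison, and of each wider list up to 4 genes with a mean of at least 5 CPM that passed in most comparisons of a clone with control. Named outside this rule were, among others, Mr1 (mean 2.06 CPM), H2-M3, Psmb5, Psmb6 and Psmb7. Of the genes with the pattern most like a member, 1 is not reported here. Alternatives were DESeq2 1.42.0 (size factors, Wald test), no filter, a replicate block, chromosome medians removed, Gm26917 and Gm42418 left out, each format alone, and each library left out.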

Additional observations from a re-analysis of the deposited data

Results flagged for a closer look

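The difference between clone 2 and control changed with culture format for 5 of the 10 genes, by the interaction in edgeR's quasi-likelihood test with Benjamini-Hochberg adjustment, where 7.43% of all tested genes were higher and 14.8% lower. With 1 library left out, this count ran from 2 to 8. Nlrc5 was at 2.68 ± 0.25 (adjusted p = 2.2e-08), Psmb8 at 0.92 ± 0.24 (adjusted p = 0.0077), Tap2 at 0.87 ± 0.19 (adjusted p = 0.0013), Psmb10 at 0.47 ± 0.13 (adjusted p = 0.0077) and Tapbp at 0.28 ± 0.09 (adjusted p = 0.028), each on the log2 scale as the 3D minus the 2D difference. Format, collagenase step and count table change together and cannot be told apart.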

How the results depend on the processing

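Of 2040 values of single genes under the alternatives, 1951 kept their direction and side of the threshold or stayed uncalled (23 of these changed sign). Another 65 lost and 18 gained a call, and 6 gained a call with the sign changed. None of these 6 was called in the main fit, where they lay between -0.1 and 0.01. All 6 came with chromosome medians removed: in clone 2 against clone 1, H2-D1 at 0.28 in 2D and 0.36 in 3D, H2-K1 at 0.38 and Tapbp at 0.30 in 2D, and in clone 1 against control, Tapbp at -0.26 in 2D and -0.22 in 3D. The count of genes higher in clone 2 than in clone 1 in 2D was 8 with chromosome medians removed, 2 with the 2D libraries alone and 2 by DESeq2's Wald test, and the count of genes higher in clone 2 than in control in 3D was 1 by DESeq2's Wald test, 1 with no filter on low counts and 1 with the replicate block. With 1 library left out, these counts ran from 2 to 4 and from 0 to 2, genes higher in the clone 2 interaction from 2 to 8, genes lower in the clone 1 interaction from 0 to 1 and genes lower in clone 2 than in clone 1 in 2D from 1 to 2. The cause was not tested. Over all genes, the 492 higher and 474 lower in the clone 1 interaction fell to as few as 209 and 196 with 1 library left out, and the 1022 higher and 2037 lower in that of clone 2 to 593 and 1282. In clone 1 in 3D the 3034 higher were 2018 without the first control library, and in clone 2 in 2D the 2596 higher were 1534 with the 2D libraries alone.

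Replicate numbers did not pair the libraries: deviations of same-numbered libraries correlated at -0.0449 to 0.0223 over 15 pairs of groups. With the replicate block, Psmb10 in clone 2 was at -0.24 in 2D and 0.24 in 3D (adjusted p = 0.055 and 0.056 by edgeR), and 6 genes were lower in clone 2 in 2D. With 4 to 11 counts per library, Psmb9 in clone 1 is the level most limited by depth.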
